A study of Mus musculus with 12 samples.

Results

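Collagens are the main structural proteins of the extracellular matrix, and each is built of chains that wind into a triple helix. The fibrillar types, such as types I, III and V, assemble into the fibrils that fibroblasts lay down in skin and embryonic mesenchyme. The network types include type IV, the sheet of the basement membrane, and types VIII and X. The remaining types comprise beaded filaments (type VI), fibril-associated collagens or FACITs (such as types IX, XII and XIV), multiplexins (types XV and XVIII), transmembrane collagens (such as types XIII, XVII and XXV) and anchoring fibrils (type VII). Fibroblasts are the cells best known for making fibrillar collagen, so these genes are a natural place to ask how chromatin differs between fibroblasts carrying different oncogenes.

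All protein-coding mouse genes whose symbol is Col, a number, a and a number were taken, which gave 44 of 21938 protein-coding genes, of which 11 were fibrillar, 9 were network and 24 were other collagens. Every peak of 7 ATAC-seq peak lists that overlapped the gene body or 20000 bp on either side was assigned to its gene. Peaks of the lists that overlapped by 1 bp or more were merged into loci. This gave 666 loci at collagen genes of 147985 in all, 165 at fibrillar, 139 at network and 362 at other collagen genes. A locus counted as open in a list that had a peak in it. It counted as closed with a treatment when the untreated list alone had a peak there, and as opened when the treated list alone had one. No p-value is given, because each group was deposited as 1 list with its libraries pooled.

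The cells were OG2 mouse embryonic fibroblasts (MEFs), taken from embryos of embryonic day 13.5 and transformed with combinations of transduced factors, and ATAC-seq maps open chromatin through the insertions of the Tn5 transposase. The 7 groups were Hras.E1A cells with PD, Hras.E1A cells with TSA, Hras.Myc cells with PD, Hras.Myc cells with TSA, Hdac7SA.Mef2d cells without treatment, and the Hras.E1A and Hras.Myc cells without treatment. PD (PD0325901) inhibits the kinase MEK, TSA (trichostatin A) inhibits histone deacetylases, and both were given for 2 days. Hras is an oncogenic GTPase upstream of MEK, E1A is an adenoviral protein and Myc is a transcription factor. Hdac7SA is a deacetylase in which 3 serines were changed to alanine so that it is not exported from the nucleus, and Mef2d is a transcription factor. The TSA groups had 1 library each and the other 5 groups had 2, of about 50000 cells each, which makes 12 samples. In each line the PD and the TSA comparison shared the untreated list. The study used these lines because they differ in reprogramming to pluripotency: Hdac7SA.Mef2d cells could be reprogrammed, Hras.E1A cells could with MEK inhibition, and Hras.Myc cells could not. Wildtype MEFs were not analysed here.

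The lists held between 56774 peaks (Hras.Myc with PD) and 119251 peaks (Hdac7SA.Mef2d), each 400 bp wide with a score from the authors. Sequencing depth is unknown, so a longer list can hold more open loci at any gene. Of 10 fibroblast marker genes (such as Thy1, Pdgfrb and Vim), 8 to 10 had an open promoter locus in each list, and 7 did in every list. Of all protein-coding genes, 62.0% to 65.9% had an open promoter locus in each list, and 57.7% did in every list. Promoters of the other lineages' markers were open in part: 4 or 5 of 7 epithelial, 1 to 3 of 5 endothelial, 1 or 2 of 5 blood and macrophage, 1 or 2 of 4 chondrocyte and 2 to 4 of 5 osteoblast, 0 to 2 of 4 skeletal muscle and 4 or 5 of 5 neural markers per list. The promoters of Krt5, Krt14, Cdh5, Vwf, Ptprc, Spi1, Itgam, Matn1, Comp, Bglap, Myog and Myf5 were open in no list, as were those of 30.8% of all genes. Whether other cell types contributed to the lists was not tested.

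Of the 666 collagen loci, 400 lay in an intron of a collagen gene (60.1%) and 45 at a collagen promoter, that is within 1000 bp of an annotated start site. A further 57 lay in coding exons, 79 upstream and 80 downstream. There were 23 loci within reach of a pair of neighbouring collagen genes, and none joined different classes. The collagen loci were thus mostly intronic, and the changes with treatment reported below were read mainly from such loci.

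The sequences that changed the same way with PD in both Hras lines show what these intronic sites look like. Among the 666 loci, 64 were open in both untreated Hras lines and in neither PD list. The consensus of AP-1, the Fos and Jun dimers that act downstream of MEK and ERK signalling, was searched as TGANTCA, in either orientation, within 100 bp of the centre of each locus (200 bp in all). It was found in 49 of these 64 loci (76.6%, 95% exact binomial interval 64.3% to 86.2%), beside 67.5% of all loci closed in both lines. By class it was found in 10 of 12 fibrillar, 12 of 21 network and 27 of 31 other loci. The following are the central 200 bp of the 2 highest-scoring closed loci of each class, on the + strand of GRCm38 (mm10), with AP-1 matches in capitals. The fibrillar loci lay upstream of Col2a1, centred at −9761 bp from its start (chr15:98014357-98014556) and in an intron of Col27a1 (chr4:63283388-63283587). The network loci lay in introns of Col4a6 (chrX:141439519-141439718) and Col4a5 (chrX:141533544-141533743), and the remaining 2 in introns of Col6a5 (chr9:105887619-105887818 and chr9:105917321-105917520).
Col2a1: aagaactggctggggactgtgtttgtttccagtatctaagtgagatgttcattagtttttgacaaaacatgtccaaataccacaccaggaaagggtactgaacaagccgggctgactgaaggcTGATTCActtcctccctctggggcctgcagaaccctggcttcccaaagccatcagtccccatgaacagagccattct
Col27a1: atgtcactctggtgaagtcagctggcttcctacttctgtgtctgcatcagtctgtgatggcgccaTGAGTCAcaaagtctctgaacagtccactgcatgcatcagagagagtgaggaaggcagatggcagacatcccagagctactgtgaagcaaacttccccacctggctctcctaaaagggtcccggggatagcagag
Col4a6: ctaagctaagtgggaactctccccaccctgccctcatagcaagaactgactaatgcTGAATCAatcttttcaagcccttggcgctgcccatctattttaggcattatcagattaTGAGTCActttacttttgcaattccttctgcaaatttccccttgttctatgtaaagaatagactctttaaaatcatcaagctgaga
Col4a5: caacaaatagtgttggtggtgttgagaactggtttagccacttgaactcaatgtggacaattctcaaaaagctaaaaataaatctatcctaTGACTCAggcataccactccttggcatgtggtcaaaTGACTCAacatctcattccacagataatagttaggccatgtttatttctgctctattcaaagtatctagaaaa
Col6a5, first site: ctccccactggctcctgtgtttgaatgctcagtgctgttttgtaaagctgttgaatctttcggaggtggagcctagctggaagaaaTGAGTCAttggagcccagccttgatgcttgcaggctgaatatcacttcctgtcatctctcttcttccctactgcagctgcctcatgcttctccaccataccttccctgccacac
Col6a5, second site: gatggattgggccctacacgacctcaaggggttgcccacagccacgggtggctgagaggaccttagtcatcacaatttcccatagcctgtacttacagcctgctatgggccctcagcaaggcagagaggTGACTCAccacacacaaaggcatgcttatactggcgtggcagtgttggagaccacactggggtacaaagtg

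In the opposite direction, 14 loci were open in both PD lists and in neither untreated Hras list. The AP-1 consensus was found in 1 of these 14 (7.14%, 0.181% to 33.9%), beside 5.49% of all loci opened in both lines. Sites of this kind are shown from an intron of Col24a1, a fibrillar collagen (chr3:145504945-145505144), an intron of Col14a1, a FACIT (chr15:55333765-55333964), and an intron of Col13a1, a transmembrane collagen (chr10:61906223-61906422). They are printed as above, and the absence of capitals means that the AP-1 letters did not occur.
Col24a1: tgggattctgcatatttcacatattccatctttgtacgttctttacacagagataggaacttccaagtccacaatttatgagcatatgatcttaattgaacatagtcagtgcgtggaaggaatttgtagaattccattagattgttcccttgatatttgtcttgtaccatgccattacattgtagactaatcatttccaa
Col14a1: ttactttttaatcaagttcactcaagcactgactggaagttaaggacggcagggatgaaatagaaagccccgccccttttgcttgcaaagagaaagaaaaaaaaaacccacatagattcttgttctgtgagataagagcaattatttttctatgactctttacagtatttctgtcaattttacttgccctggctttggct
Col13a1: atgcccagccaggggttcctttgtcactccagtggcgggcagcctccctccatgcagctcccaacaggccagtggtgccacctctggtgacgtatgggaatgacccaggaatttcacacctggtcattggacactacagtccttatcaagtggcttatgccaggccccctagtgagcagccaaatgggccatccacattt

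Across the 7 lists, the number of open collagen loci was 282 in Hras.E1A cells with PD, 350 in Hras.E1A cells with TSA, 267 in Hras.Myc cells with PD and 306 in Hras.Myc cells with TSA. Without treatment, Hdac7SA.Mef2d cells had 524, Hras.E1A cells 378 and Hras.Myc cells 286. The Hdac7SA.Mef2d list therefore had a peak in 78.7% of the collagen loci (75.4% to 81.7%), and the other lists in 40.1% to 56.8%. The order of the lists at collagen genes was that of the lengths of the whole lists. In 128 collagen loci every list had a peak (19.2%, beside 20.2% of all loci).

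**Figure D1:**
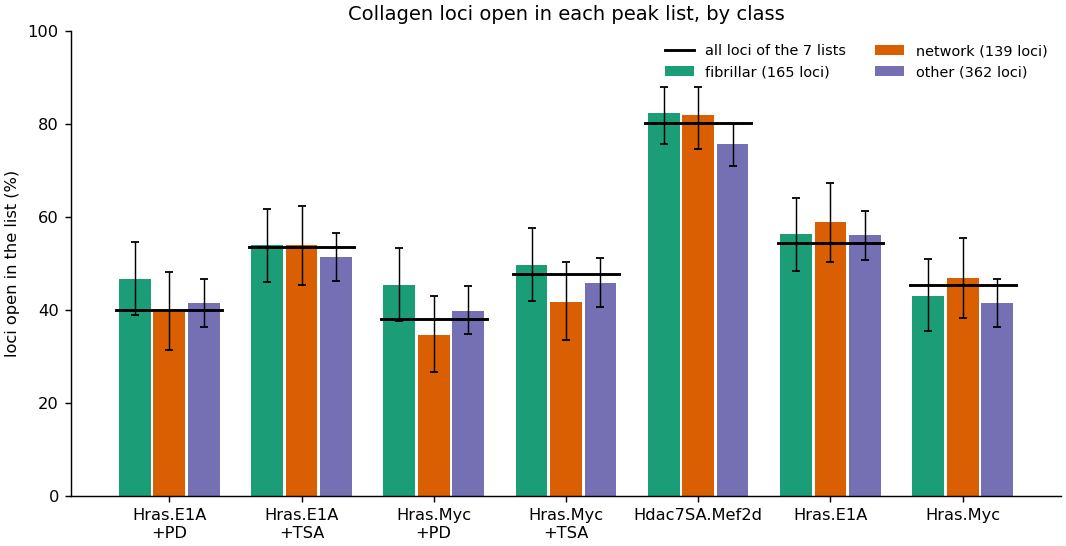
Open collagen loci in each of the 7 peak lists, as a percentage of the loci of each class (165 fibrillar, 139 network and 362 other), with exact 95% binomial intervals that cover counting error only. Hdac7SA.Mef2d stood highest in all 3 classes (75.7% to 82.4%), and the network class was lowest in Hras.Myc cells with PD (34.5%).

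Fibrillar collagens had 77 open loci in Hras.E1A cells with PD and 93 in untreated Hras.E1A cells, and 75 in Hras.Myc cells with PD and 71 in untreated Hras.Myc cells. Network collagens had 55 with PD and 82 untreated in Hras.E1A cells, and 48 with PD and 65 untreated in Hras.Myc cells. Other collagens had 150 with PD and 203 untreated in Hras.E1A cells, and 144 with PD and 150 untreated in Hras.Myc cells. In Hras.Myc cells the fibrillar class thus had slightly more open loci with PD, whereas the network class had fewer with PD in both lines. The PD lists were shorter than the untreated ones (59823 against 81201 peaks in Hras.E1A cells, 56774 against 67738 in Hras.Myc cells).

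The major fibrillar genes were accessible in every list. Col1a1, which encodes the α1 chain of type I collagen, had 7 open loci of 12 in Hras.E1A cells with PD, 8 with TSA, 8 in Hras.Myc cells with PD and 6 with TSA. Hdac7SA.Mef2d cells had 10, untreated Hras.E1A cells 8 and untreated Hras.Myc cells 6. Col3a1, the chain of type III collagen, had 3 and 6 of 11 in Hras.E1A cells with PD and with TSA, 5 and 7 in Hras.Myc cells with PD and with TSA, and 10 in Hdac7SA.Mef2d cells, 6 in untreated Hras.E1A cells and 4 in untreated Hras.Myc cells. Its promoter locus was open in all lists with scores of 4.15 to 6.93. Type V chains help set the diameter of type I fibrils. Of these, Col5a1 had 21 open loci of 25 in Hdac7SA.Mef2d cells and 8 to 13 in the other lists. Col5a2 had 12 of 13 in Hdac7SA.Mef2d cells and 4 to 6 in the other lists, whereas Col5a3 had 10 of 12 in Hdac7SA.Mef2d as well as in untreated Hras.E1A cells.

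Col1a2, which encodes the α2 chain of type I collagen (chr6:4504814-4541544), was the fibrillar gene whose promoter was not open in every list. Its promoter locus (chr6:4505555-4505954) had a peak of score 3.85 in Hras.E1A cells with PD and of 3.43 in Hdac7SA.Mef2d cells, and no peak in the other 5 lists. Both peaks ranked low in their list, at percentiles 21.7 and 24.2. The 250 bases before the RefSeq start of Col1a2 (chr6:4505368-4505617, + strand, GRCm38.p6) are shown because this promoter differed between lists. Capitals mark, on either strand, the consensus letters of SP/KLF factors (GGGCGG) and NF-Y (CCAAT), and a loose MEF2 pattern. The loose pattern was CTA and TAG with 4 bases of any kind between them. The MEF2 consensus has A or T at those 4 bases, which the match here (CTAGCCCTAG) lacks, so it is not a MEF2 consensus site. The locus covered the last 63 of the 250 bases, which hold the match to the loose pattern but neither the SP/KLF nor the NF-Y matches.
Col1a2 promoter: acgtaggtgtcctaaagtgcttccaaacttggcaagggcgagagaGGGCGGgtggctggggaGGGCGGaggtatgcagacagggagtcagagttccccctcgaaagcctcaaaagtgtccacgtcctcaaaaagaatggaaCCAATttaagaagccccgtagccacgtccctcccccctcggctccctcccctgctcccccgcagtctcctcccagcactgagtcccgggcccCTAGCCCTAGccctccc

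For 35 of the 44 members a RefSeq promoter was at hand, in 38 sequences. GGGCGG was found in 57.9% of them (32.7% of 32851 promoters of the same length), CCAAT in 34.2% (33.8%), the loose MEF2 pattern in 10.5% (3.20%) and TGANTCA in 2.63% (6.75%). Every match to the loose pattern in the collagen promoters had G or C among its middle bases, so none was a MEF2 consensus site. A match only describes the letters.

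Most collagen promoters were open. Of 44 members, 34 had an open promoter locus in Hras.E1A cells with PD (77.3%, beside 64.2% of all genes), 36 in Hdac7SA.Mef2d cells (81.8%, beside 65.9%), 35 in untreated Hras.E1A cells (79.5%, beside 65.6%) and 28 in Hras.Myc cells with TSA (63.6%, beside 62.1%). In 26 members a promoter locus was open in all 7 lists (59.1%, beside 57.7% of all genes). In 4 members, namely Col17a1, Col20a1, Col6a4 and Col6a6, it was open in none (9.09%, beside 30.8% of all genes). The fibrillar promoters were open in all lists with the exception of Col1a2.

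Several promoters were open in the Hdac7SA.Mef2d list, the longest, and in no other. Those of Col6a3, a type VI chain (score 1.74), Col9a1, a FACIT of cartilage with an internal start site there (2.59), Col10a1, the network collagen of hypertrophic cartilage (10.5), and Col28a1 (5.09) had a peak in that list only. The peak of Col6a3 ranked at percentile 5.75 and that of Col10a1 at 90.7, so these calls differed widely in strength. Of all promoter loci open in Hdac7SA.Mef2d cells, 7.51% were not open in untreated Hras.E1A and 11.1% not in untreated Hras.Myc cells. Of the promoter loci at collagen genes open there, 7 of 59 were not open in untreated Hras.E1A cells (11.9%, 4.91% to 22.9%). Conversely, a promoter locus of Col26a1 was open in all 6 Hras lists and not in Hdac7SA.Mef2d cells, with percentiles of 2.58 to 15.7, low in each Hras list. The promoters shared by Col4a3 and Col4a4, and that of Col4a6, were open in Hdac7SA.Mef2d and the 3 Hras.E1A lists and in none of the 3 Hras.Myc lists. Type IV chains of these genes build specialised basement membranes, such as that of the kidney glomerulus. The shared Col4a3 and Col4a4 locus scored 5.24 to 7.61, and the Col4a6 locus scored 1.90 to 5.04.

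Other promoters moved with treatment. Col22a1, a FACIT of tissue junctions, had a promoter peak of score 11.1 in Hras.E1A cells with PD, 7.08 in Hras.E1A cells with TSA, 9.47 in untreated Hras.E1A cells and 5.20 in untreated Hras.Myc cells. No peak was present in Hras.Myc cells with PD, Hras.Myc cells with TSA or Hdac7SA.Mef2d cells. The Col13a1 promoter locus 581 bp into the gene had a peak of 3.53 in Hras.Myc cells with PD and 2.28 in Hras.Myc cells with TSA, and none in untreated Hras.Myc cells. The Col8a2 promoter was open in the 3 untreated lists and in no treated list, yet its scores of 1.33 to 2.01 lay near the bottom of those lists.

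MEK inhibition closed collagen loci in both Hras lines. In Hras.E1A cells, 143 of the 378 loci open without treatment were closed with PD (37.8%, 32.9% to 42.9%), where the share over all loci was 38.9%. In Hras.Myc cells it was 108 of 286 (37.8%, 32.1% to 43.7%), with 38.4% over all loci. Both intervals hold the value of all loci, and the shares over the loci of all protein-coding genes with the same window were 35.5% in Hras.E1A and 35.7% in Hras.Myc cells. The collagen loci were thus close to the background in how often they closed.

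The share of collagen loci opened with PD was larger in Hras.Myc cells, as it was over all loci. Of the 267 collagen loci open there with PD, 89 were not open without it (33.3%, 27.7% to 39.3%), where the share over all loci was 26.4% and over loci in the window of any protein-coding gene 21.7%. In Hras.E1A cells 47 of 282 were opened (16.7%, 12.5% to 21.5%), beside 16.9% and 14.3%. The interval in Hras.Myc cells lies above both background values, but it treats neighbouring loci as independent. Away from all promoters, 87 of 217 collagen loci were opened in Hras.Myc cells (40.1%, 33.5% to 46.9%). The share over all distal loci, 33.7%, lies just within that interval. That over distal loci in the window of any protein-coding gene, 29.7%, lies below it. In Hras.E1A cells 45 of 226 distal collagen loci were opened (19.9%, beside 21.3% and 19.2%). PD closed 43.4% of the distal collagen loci in Hras.E1A cells (46.3% of all distal loci) and 44.4% in Hras.Myc cells (46.9%). With all lists shortened to the top 56774 peaks by score, 113 loci opened and 96 closed with PD in Hras.E1A cells, and 124 opened and 82 closed in Hras.Myc cells, so the excess of closed over opened loci did not hold with lists of equal length.

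**Figure D2:**
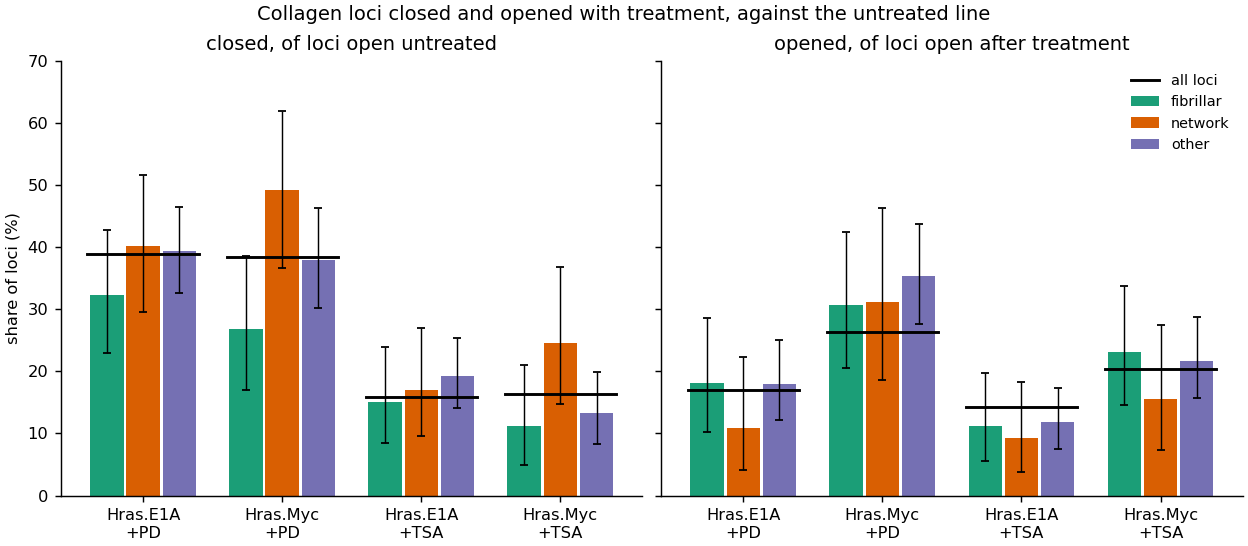
Collagen loci closed (percent of those open untreated) and opened (percent of those open with treatment) for PD and TSA in each Hras line, by class, with exact 95% binomial intervals and the share over all loci for reference. The network class had the highest closed share with PD in each line (40.2% in Hras.E1A, 49.2% in Hras.Myc), and its intervals overlap those of the other classes.

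By class, PD closed 30 of 93 fibrillar (32.3%, 22.9% to 42.7%), 33 of 82 network (40.2%, 29.6% to 51.7%) and 80 of 203 other loci (39.4%, 32.6% to 46.5%) in Hras.E1A cells. In Hras.Myc cells it closed 19 of 71 fibrillar (26.8%, 16.9% to 38.6%), 32 of 65 network (49.2%, 36.6% to 61.9%) and 57 of 150 other loci (38.0%, 30.2% to 46.3%). In each line the fibrillar share was the lowest and the network share the highest, but the intervals overlap and each holds the value over all loci. Without Col4a1 and Col4a2, chosen after their values were seen, the network share was 15 of 45 (33.3%) in Hras.E1A and 12 of 29 (41.4%) in Hras.Myc cells. PD opened 14 fibrillar, 6 network and 27 other loci in Hras.E1A cells, and 23, 15 and 51 loci of these classes in Hras.Myc cells. With lists of equal length these counts were 34, 20 and 59 in Hras.E1A cells and 34, 23 and 67 in Hras.Myc cells.

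Col4a1 and Col4a2 encode the chains of the commonest type IV collagen and lie head to head on chromosome 8, from a shared promoter region. Col4a1 had 8 open loci of 25 in Hras.E1A cells with PD, 16 with TSA and 17 untreated, and 10, 13 and 18 in Hras.Myc cells with PD, with TSA and untreated. Col4a2 had 14 open loci of 39 in Hras.E1A cells with PD, 23 with TSA and 27 untreated, and 11, 21 and 25 in Hras.Myc cells with PD, with TSA and untreated. In Hdac7SA.Mef2d cells Col4a1 had 18 and Col4a2 had 30. Over both genes, PD closed 18 of 37 loci in Hras.E1A cells (48.6%, 31.9% to 65.6%) and opened 1, and it closed 20 of 36 in Hras.Myc cells (55.6%, 38.1% to 72.1%) and opened 3. These intervals hold the closed shares over all loci (38.9% and 38.4%) and over all distal loci (46.3% and 46.9%). Of the 64 collagen loci closed in both lines, 8 were at Col4a2 and 6 at Col4a1, more than at any other member. These raw counts favour members with many loci, and Col4a2 had the most of all members (39).

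The shared promoter stayed open while sites further from it closed, as over all loci, where PD closed 6.98% of promoter loci in Hras.E1A cells and 7.16% in Hras.Myc cells. The promoter locus 39 bp upstream of the Col4a1 start had scores of 4.88 in Hras.E1A cells with PD, 5.15 with TSA and 4.33 untreated, 5.40 in Hras.Myc cells with PD, 2.90 with TSA and 4.09 untreated, and 5.24 in Hdac7SA.Mef2d cells. By contrast, the intronic Col4a2 locus 87660 bp from the gene start had no peak in either PD list, and scored 10.1 and 12.4 in Hras.E1A cells with TSA and untreated, 4.22 and 6.68 in Hras.Myc cells with TSA and untreated, and 8.71 in Hdac7SA.Mef2d cells. The strongest Col4a1 locus, 97412 bp from its start, was open in all lists and had its highest score in Hras.E1A cells with PD (27.8, against 10.9 untreated). Scores rank peaks within a list and do not measure a change between lists.

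**Figure D3:**
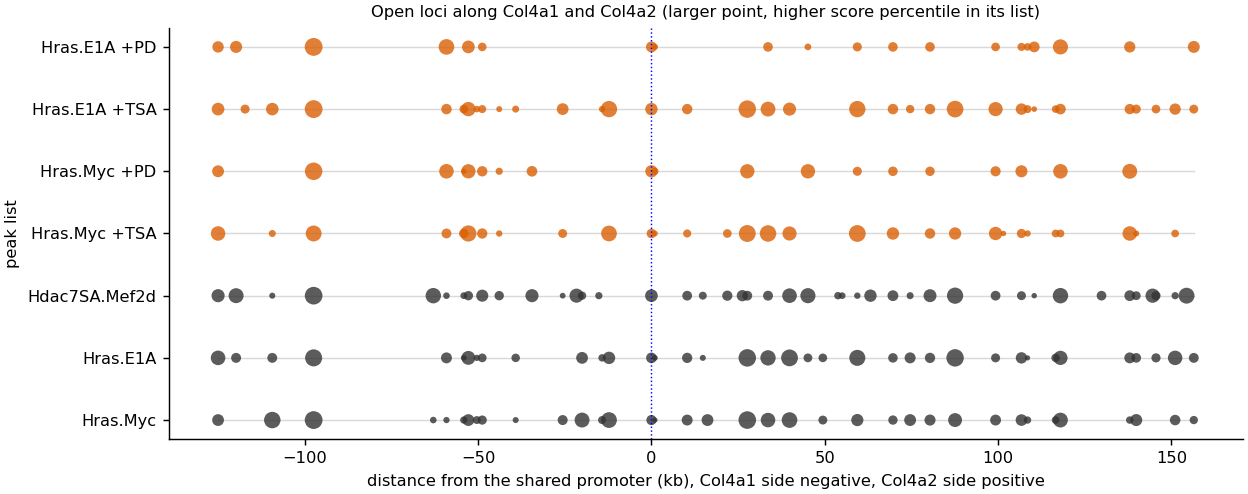
Open loci across Col4a1 and Col4a2 in the 7 peak lists, by distance from the shared start region, with 1 point per open locus (larger for a higher score percentile in its list), treated lists in orange and untreated lists in grey. With PD, 18 of 37 loci in Hras.E1A cells and 20 of 36 in Hras.Myc cells were closed, whereas the loci at the shared start stayed open.

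Type VI collagen, the beaded filament found around most connective tissue cells, had fewer open loci with PD in both lines. Over its 6 genes PD closed 16 of 34 loci in Hras.E1A cells (47.1%, 29.8% to 64.9%) and opened 0, which allows an opened share of up to 18.5% by the exact interval. In Hras.Myc cells it closed 13 of 26 (50.0%, 29.9% to 70.1%) and opened 4. Both intervals of closed loci hold the shares over all loci (38.9% for Hras.E1A cells, 38.4% for Hras.Myc cells). Col6a1 had 4 open loci of 8 with PD and 6 untreated in Hras.E1A cells, and 3 with PD and 5 untreated in Hras.Myc cells. Col6a2 had 1 of 6 with PD in each line, against 2 untreated in Hras.E1A and 3 untreated in Hras.Myc cells. Col6a3, the largest chain, had 3 of 11 with PD and 9 untreated in Hras.E1A cells, and 5 with PD and 7 untreated in Hras.Myc cells. All 3 chains of the common type VI trimer therefore had fewer open loci with PD in both lines. Over all genes, 48.9% had fewer in Hras.E1A cells and 43.8% in Hras.Myc cells. Col6a4 and Col6a5 also had fewer in both lines, whereas Col6a6 had 4 with PD in each line, against 6 untreated in Hras.E1A and 2 untreated in Hras.Myc cells. The PD lists were the shorter, and the type VI counts were not redone with lists of equal length.

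Col22a1 kept fewer of its open loci than most members. Of its 17 loci, 3 were open in Hras.E1A cells with PD, 14 with TSA and 13 untreated, and 1 in Hras.Myc cells with PD, 3 with TSA and 6 untreated, beside 12 in Hdac7SA.Mef2d cells. The locus that stayed open in all lists lay 116392 bp into the gene and scored 15.5 in Hras.E1A cells with PD, 10.8 with TSA and 8.71 untreated, and 5.68, 7.51 and 10.4 in Hras.Myc cells with PD, with TSA and untreated. Multiplexin Col18a1, whose C-terminal fragment is endostatin, had 12 open loci of 26 with PD in each line, against 20 untreated in Hras.E1A and 21 untreated in Hras.Myc cells. Its 2 promoter loci were open in every list. Col17a1, a hemidesmosome collagen of epithelia, had 3 of 7 with PD and 7 untreated in Hras.Myc cells, and 3 with PD and 4 untreated in Hras.E1A cells.

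The largest net gains included transmembrane and FACIT collagens. Col13a1 had 15 open loci of 18 in Hras.Myc cells with PD and 6 untreated, and 9 with PD and 10 untreated in Hras.E1A cells. Col14a1, a FACIT of tendon and skin, had 14 of 27 with PD and 7 untreated in Hras.Myc cells, and 13 with PD and 11 untreated in Hras.E1A cells. Col12a1, its relative, had 10 of 20 with PD and 6 untreated in Hras.Myc cells, and 9 with PD and 7 untreated in Hras.E1A cells. Both FACIT genes therefore had more open loci with PD in either line, but they are named here as members with large net gains. Of all genes, 8.64% had more in Hras.E1A cells and 12.7% in Hras.Myc cells. Over all FACIT genes the net change was −4 in Hras.E1A and 4 in Hras.Myc cells. Col22a1 and Col9a3, also FACITs, had fewer open loci with PD in both lines. Col28a1, with 8 of 22 with PD and 4 untreated in Hras.Myc cells, had 6 with PD and 8 untreated in Hras.E1A cells. Col16a1 had the largest net gain in Hras.E1A cells, with 11 of 16 with PD and 8 untreated, beside 8 in both Hras.Myc lists. The next in Hras.E1A cells, Col19a1 with 8 of 17 with PD and 6 untreated and Col8a2 with 9 of 11 with PD and 8 untreated, differed by 2 and 1 loci.

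Over the transmembrane collagens, PD closed 22 of 42 loci in Hras.E1A cells (52.4%, 36.4% to 68.0%) and 10 of 27 in Hras.Myc cells (37.0%, 19.4% to 57.6%). It opened 8 of the 28 open with PD in Hras.E1A cells (28.6%, 13.2% to 48.7%) and 19 of 36 in Hras.Myc cells (52.8%, 35.5% to 69.6%). In the FACIT genes 15 of 60 loci were opened in Hras.E1A cells (25.0%, 14.7% to 37.9%) and 18 of 50 in Hras.Myc cells (36.0%, 22.9% to 50.8%). PD closed 19 of 64 FACIT loci in Hras.E1A cells (29.7%, 18.9% to 42.4%) and 14 of 46 in Hras.Myc cells (30.4%, 17.7% to 45.8%). Over all loci PD closed 38.9% in Hras.E1A and 38.4% in Hras.Myc cells and opened 16.9% and 26.4%. Each of the intervals above holds its value except that of transmembrane loci opened in Hras.Myc cells. Of those 19 opened loci, 10 lay at Col13a1, 7 at Col25a1, 2 at Col23a1 and 0 at Col17a1. Col13a1 and Col25a1 were named for their net gain in this same comparison. The interval treats neighbouring loci of a gene as independent, and the share without Col13a1 and Col25a1 was not tested. Col25a1, a transmembrane collagen of neurons and muscle, had 7 open loci of 31 with PD and 16 untreated in Hras.E1A cells, and 10 with PD and 6 untreated in Hras.Myc cells. It thus differed in sign between the lines.

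**Figure D4:**
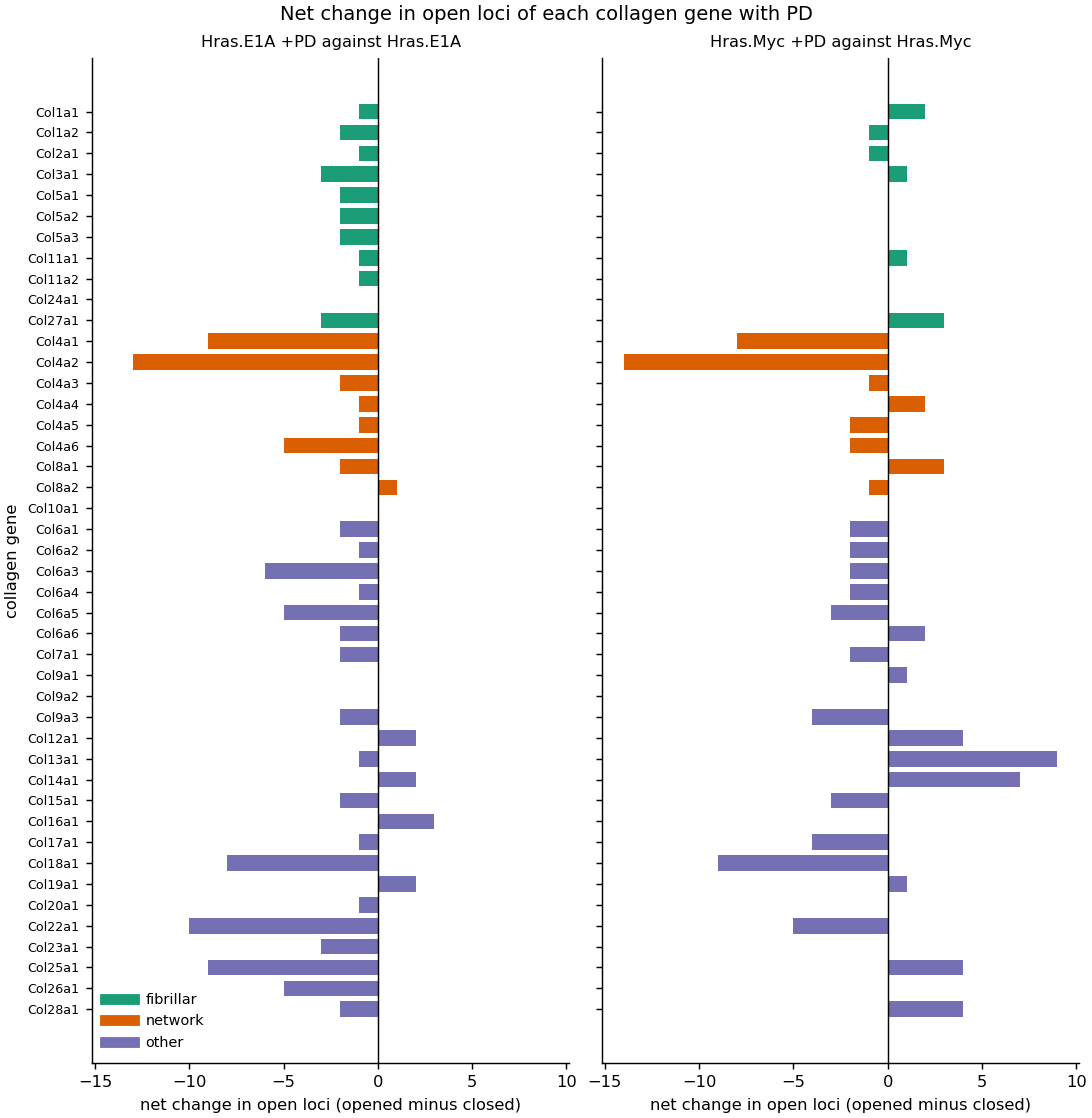
Net change in open loci with PD (opened minus closed loci) of each collagen gene in Hras.E1A and Hras.Myc cells. Col4a2 lost 13 and 14 loci net in the Hras.E1A and Hras.Myc lines, and Col13a1 gained 9 in Hras.Myc cells and lost 1 in Hras.E1A cells.

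By gene, 35 of 44 members had fewer open loci with PD in Hras.E1A cells (48.9% of all genes did), and 19 had fewer and 14 more in Hras.Myc cells (43.8% and 12.7% of all genes). Collagen genes are long and hold many loci, so that a tie is rarer in them and these shares are not on an equal footing with those of all genes. In Hras.E1A cells 10 of the 11 fibrillar genes had fewer open loci and none had more. The PD list was the shorter there (59823 against 81201 peaks). With lists of equal length PD opened 34 fibrillar loci in Hras.E1A cells, against 14 with the full lists. The counts by gene were not redone with such lists. In Hras.Myc cells 2 fibrillar genes had fewer and 4 had more.

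Without treatment 259 collagen loci were open in the Hras.E1A as well as the Hras.Myc list. Of these, 64 were closed with PD in both (24.7%, beside 24.4% of all loci), 155 were kept in both, 17 closed in Hras.E1A cells alone and 23 in Hras.Myc cells alone. By class, 12 of 67 fibrillar, 21 of 61 network and 31 of 131 other loci were closed in both lines. The 64 loci lay at 32 genes, and 42 were intronic. The 14 loci opened in both lines lay at 10 genes, with 3 at Col13a1. A further 14 loci were closed in Hras.E1A cells and opened in Hras.Myc cells, and 0 the other way, where the counts over all loci were 1280 and 434.

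The AP-1 consensus differed in frequency between these groups. It was present in 49 of the 64 loci closed in both lines (67.5% of all loci of that kind), in 29 of the 155 kept in both (18.7%, beside 16.0% of all loci) and in 1 of the 14 opened in both (5.49% of all loci). Per line, 84 of the 143 collagen loci closed in Hras.E1A cells held it (58.7%, 50.2% to 66.9%), against 48 of 235 kept (20.4%), and 66 of 108 closed in Hras.Myc cells (61.1%), against 41 of 178 kept (23.0%). In loci opened with PD it was present in 5 of 47 in Hras.E1A cells (10.6%) and 16 of 89 in Hras.Myc cells. Over all loci the corresponding shares were 57.3% closed, 16.7% kept and 7.79% opened in Hras.E1A cells, and 53.6%, 21.7% and 10.9% in Hras.Myc cells, so the collagen loci resembled the rest of the genome in this. The TEAD consensus (CATTCCA) was present in 5 of the 47 loci opened in Hras.E1A cells (10.6%, beside 11.6% of all loci) and 15 of the 89 opened in Hras.Myc cells (16.9%, 9.75% to 26.3%, beside 11.2%). In closed loci it was present in 15 of 143 in Hras.E1A cells (10.5%, 5.99% to 16.7%, beside 5.57%) and 3 of 108 in Hras.Myc cells (2.78%, beside 4.41%). Motifs were counted separately, and their matches may overlap. Closed and kept collagen loci also differed in promoter content. In Hras.E1A cells 54 of the 235 kept loci were at a promoter of any gene, against 4 of the 143 closed. In Hras.Myc cells it was 48 of 178 kept, against 4 of 108 closed. The motif shares above mix promoter and distal loci.

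Individual sites show the pattern of scores. The Col27a1 site printed above had no peak in either PD list and scored 12.7 in Hras.E1A cells with TSA, 12.0 in Hras.Myc cells with TSA, 4.14 in Hdac7SA.Mef2d cells, 8.61 in untreated Hras.E1A cells and 8.78 in untreated Hras.Myc cells. The Col14a1 site had peaks of 13.5 and 8.83 in Hras.E1A and Hras.Myc cells with PD and of 6.92 in Hdac7SA.Mef2d cells, and no peak in the other 4 lists. The Col13a1 site scored 8.36 and 9.69 in Hras.E1A and Hras.Myc cells with PD and had no peak elsewhere. The Col24a1 site scored 16.9 in Hras.E1A cells with PD and 5.11 in Hras.Myc cells with PD, and 3.13 in Hdac7SA.Mef2d cells. None of the 3 opened sites had a peak in an untreated or TSA-treated Hras list.

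The untreated scores of closed and kept loci were also compared. In untreated Hras.E1A cells the collagen loci that closed with PD had a median score percentile of 42.0 and those kept one of 46.0 (44.5 and 53.5 over all loci). In untreated Hras.Myc cells the medians were 38.8 closed and 49.1 kept (43.9 and 53.8 over all loci). The classes differed in this: network loci had medians of 29.0 closed and 50.8 kept in Hras.E1A cells, and 39.0 closed and 37.3 kept in Hras.Myc cells. These differences were not tested.

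HDAC inhibition changed fewer collagen loci. In Hras.E1A cells TSA closed 67 of 378 (17.7%, 14.0% to 22.0%), where the share over all loci was 15.8%, and opened 39 of 350 (11.1%, 8.04% to 14.9%), beside 14.2%. In Hras.Myc cells it closed 44 of 286 (15.4%, 11.4% to 20.1%), beside 16.4%, and opened 64 of 306 (20.9%, 16.5% to 25.9%), beside 20.3%. All 4 intervals hold the values of all loci. In Hras.Myc cells 19 of 82 fibrillar loci opened (23.2%) and 8 of 71 closed (11.3%). There 9 of 58 network loci opened (15.5%) and 16 of 65 closed (24.6%). The intervals of these class shares hold the values of all loci too. In both lines together, TSA closed 8 of the 259 shared loci (3.09%, beside 2.62% over all loci) and opened 4 others.

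Single members changed by up to 7 loci net with TSA. In Hras.E1A cells Col25a1 had 9 open loci of 31 with TSA and 16 untreated, and Col26a1 had 9 of 17 with TSA and 16 untreated. Col1a2 had 10 of 15 with TSA and 7 untreated in Hras.E1A cells but 4 with TSA and 6 untreated in Hras.Myc cells. Col3a1 had 7 of 11 with TSA and 4 untreated in Hras.Myc cells, and 6 in both Hras.E1A lists. Col16a1 had more open loci with TSA in both lines, with 10 against 8 untreated in Hras.E1A and 11 against 8 untreated in Hras.Myc cells. Col11a2 and Col27a1 each gained 3 loci net in Hras.Myc cells, and Col4a1 lost 5 there. The remaining members among the largest changes moved by 1 to 4 loci: in Hras.E1A cells Col4a2, Col18a1 and Col2a1 lost and Col19a1, Col9a2 and Col10a1 gained loci, and in Hras.Myc cells Col4a2, Col22a1 and Col8a2 lost and Col12a1 gained loci. With TSA in Hras.Myc cells type VI collagen opened 8 of 33 loci (24.2%, 11.1% to 42.3%, beside 20.3% over all loci). It closed 1 of 26 there (3.85%, 0.0973% to 19.6%, beside 16.4%). In Hras.E1A cells it closed 8 of 34 (23.5%, 10.7% to 41.2%, beside 15.8%) and opened 2 of 28 (7.14%, 0.877% to 23.5%, beside 14.2%). Each of these intervals holds the value over all loci, and each TSA group had 1 library.

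Hdac7SA.Mef2d cells had the widest set of open collagen loci. Of 524 loci open there, 231 were not open in untreated Hras.E1A cells (44.1%, 39.8% to 48.4%, where the share over all loci was 44.9%), and 304 were not open in untreated Hras.Myc cells (58.0%, 53.7% to 62.3%, beside 55%). In the other direction, 85 of 378 Hras.E1A loci were not open in Hdac7SA.Mef2d cells (22.5%, 18.4% to 27.0%, beside 18.8%), and 66 of 286 Hras.Myc loci were not (23.1%, 18.3% to 28.4%, beside 20.6%). The Hdac7SA.Mef2d list was also the longest, and deeper sequencing and more open chromatin cannot be told apart here. With each list limited to its top 56774 peaks, Hdac7SA.Mef2d cells had 195 open collagen loci, against 248 in Hras.E1A and 225 in Hras.Myc cells, so the direction of the difference turned round.

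The members with the largest surplus in Hdac7SA.Mef2d cells were found in all classes. Col25a1 had 26 open loci of 31 in Hdac7SA.Mef2d cells, against 16 in Hras.E1A and 6 in Hras.Myc cells. Col14a1 had 24 of 27, against 11 and 7 in these lines, and Col28a1 had 20 of 22, against 8 and 4. Col15a1, a multiplexin of basement membrane zones, had 23 of 26, against 11 in each Hras line. Col8a1, a network collagen of vessel walls and the cornea, had 20 of 23, against 9 and 5, and Col24a1 had 22 of 27, against 11 and 9. Col9a1 had a peak in all 13 loci in Hdac7SA.Mef2d cells, against 4 in Hras.E1A cells and 1 in Hras.Myc cells, and 7 of the 13 were open in that list alone. Col11a1, a fibrillar collagen of cartilage, had all 10 of its loci open there, against 2 in each untreated Hras line. Col10a1 had both of its 2 loci open in Hdac7SA.Mef2d cells, against 0 in the untreated Hras lists and 1 in Hras.E1A cells with TSA. Other collagens of cartilage were mixed. Col2a1 had 8 of 12 loci open in Hdac7SA.Mef2d cells, against 10 in Hras.E1A and 9 in Hras.Myc cells. Col11a2 had 6 of 9 (against 7 and 6) and Col9a3 6 of 8 (against 7 and 7). Col9a2 had 7 of 9 (against 5 and 4) and Col27a1 17 of 22 (against 15 and 9).

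Some members went the other way. Col26a1 had 7 open loci of 17 in Hdac7SA.Mef2d cells, against 16 in Hras.E1A and 6 in Hras.Myc cells. Col18a1 had 16 of 26, against 20 and 21, and Col13a1 had 6 of 18, against 10 in Hras.E1A and 6 in Hras.Myc cells. Col17a1 had 3 of 7, against 4 and 7, and Col7a1, the anchoring fibril collagen, had 6 of 10, against 8 and 9. Differences of 1 or 2 loci were seen in Col2a1 and Col9a3, and Col23a1 had 10 of 19, against 12 in Hras.E1A and 8 in Hras.Myc cells.

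**Figure D5:**
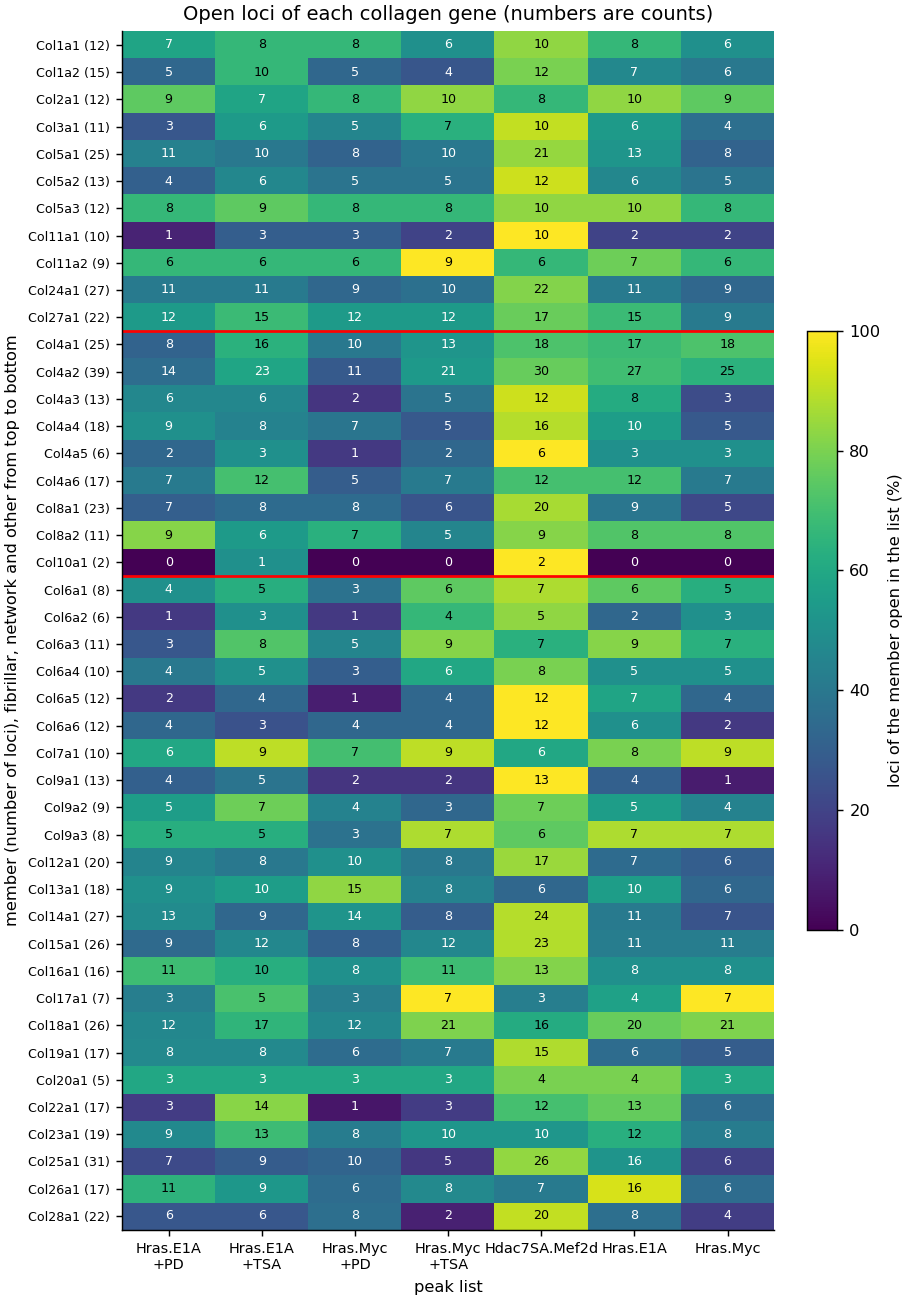
Number of open loci of each of the 44 collagen genes in each of the 7 peak lists, with members grouped by class. Hdac7SA.Mef2d had the most open loci at genes such as Col25a1 (26 of 31) and Col14a1 (24 of 27), whereas Col18a1 had more in untreated Hras.E1A (20 of 26) and Hras.Myc cells (21 of 26).

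In total 218 collagen loci were open in Hdac7SA.Mef2d and in neither untreated Hras line (41.6% of its 524, beside 42.6% over all loci), 142 were open in Hdac7SA.Mef2d alone of the 7 lists, and 207 were open in all 3 untreated lines. The loose MEF2 pattern, with any bases in its middle, was present in the central 200 bp of 11 of the 218 (5.05%, beside 5.67% of all such loci). The AP-1 consensus was present in 22.9% (24.9%). Loci that moved with PD were in part open in Hdac7SA.Mef2d cells. Of the loci closed with PD, 96 of 143 in Hras.E1A cells (67.1%) and 62 of 108 in Hras.Myc cells (57.4%) were open in Hdac7SA.Mef2d cells, and over all loci these shares were 67.2% and 59.3%. Of the opened loci, 31 of 47 in Hras.E1A cells (beside 61.9% of all loci) and 57 of 89 in Hras.Myc cells (64.0%, beside 65.3%) were open in Hdac7SA.Mef2d cells. The collagen values were thus close to the background.

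Between the Hras lines, 119 of 378 Hras.E1A loci were not open in untreated Hras.Myc cells (31.5%, 26.8% to 36.4%, where the share over all loci was 25.2%). In return, 27 of 286 Hras.Myc loci were not open in Hras.E1A cells (9.44%, 6.31% to 13.4%, beside 10.3%). The first interval lies above the share over all loci. Away from promoters 113 of 320 Hras.E1A loci were not open in Hras.Myc cells (35.3%, 30.1% to 40.8%), beside 29.4% of all distal loci. The largest differences were Col25a1, with 16 open loci in Hras.E1A cells and 6 in Hras.Myc cells, Col26a1 (16 and 6), Col22a1 (13 and 6), Col27a1 (15 and 9) and Col4a3 (8 and 3). Col17a1, with 4 and 7, was the member with the largest deficit in Hras.E1A cells.

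Other genes of collagen biology were taken as lists. The 22 genes of collagen synthesis and crosslinking, such as the prolyl hydroxylases P4ha1 to P4ha3, the chaperone Serpinh1 and the lysyl oxidases, had 220 loci. PD closed 37 of 134 of these loci in Hras.E1A cells (27.6%, 20.2% to 36.0%) and 30 of 123 in Hras.Myc cells (24.4%, 17.1% to 33.0%), and it opened 26 and 24 in these lines. Over all loci PD closed 38.9% and 38.4%, above both intervals. Over loci in the same window of any protein-coding gene it closed 35.5% in Hras.E1A cells, which that interval holds, and 35.7% in Hras.Myc cells, which lies above it. Lox, which crosslinks collagen and elastin, had 5 open loci with PD and 2 untreated in Hras.E1A cells, and 1 with PD and 0 untreated in Hras.Myc cells. Adamts14, a procollagen N-proteinase, had 6 open loci with PD and 10 untreated in both lines.

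Collagenase and protease genes, of which 7 of 8 were found in the annotation, had 13 of 35 loci closed with PD in Hras.E1A cells (37.1%, 21.5% to 55.1%) and 8 of 31 in Hras.Myc cells (25.8%, 11.9% to 44.6%). Mmp3, a stromelysin and a known AP-1 target, had 0 open loci with PD and 2 untreated in each line. Mmp13, an interstitial collagenase, had 0 with PD and 2 untreated in Hras.E1A cells, and 2 in both of the matching Hras.Myc lists. Collagen receptor genes had 27 of 63 loci closed in Hras.E1A cells (42.9%, 30.5% to 56.0%) and 14 of 51 in Hras.Myc cells (27.5%, 15.9% to 41.7%), and the receptor kinase Ddr2 had 10 open loci with PD and 17 untreated in Hras.E1A cells. Among the small proteoglycans that bind collagen fibrils, 10 of 27 loci closed in Hras.E1A cells (37.0%, 19.4% to 57.6%) and 9 of 20 in Hras.Myc cells (45.0%, 23.1% to 68.5%), and Dcn, decorin, had 1 open locus with PD and 3 untreated in each line. The intervals of these 3 lists all hold the shares over all loci, 38.9% and 38.4%.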

How the data were processed

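The 12 ATAC-seq samples formed 7 groups. Per the labels, reads were aligned with Bowtie2 2.4.5 to mm10 and peaks were called with MACS2 2.2.7.1, and per the methods of the study low-scoring peaks were recovered by redefining peaks over all samples. The authors deposited 1 peak list per group, each peak 400 bp wide with a score whose scale is not stated and whose lowest value was 1.20. The sources used here do not say how replicate libraries were combined. Scores served to rank the peaks of 1 list and not to compare lists.

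Genes and start sites came from the GENCODE M21 basic annotation (GRCm38), and RefSeq gave the promoter sequences. Only the autosomes and the X and Y chromosomes entered. A member is any protein-coding gene whose symbol is Col, a number, a and a number. Distances are from the 5′ end of the gene record to the centre of a locus. Intervals of shares are at the 95% level by the Clopper-Pearson method. They account for counting error alone, as if loci were independent. Motifs of 7 factors were searched as consensus letters in the central 200 bp, and the results for RUNX and SOX are not described. The MEF2 pattern was looser than the consensus, since it allowed any bases in its middle. The merging of peaks, the open states and the counts of loci in gene windows were tested on simulated data. The intervals were not. The tools were Python 3.11.15, numpy 2.4.6, scipy 1.17.1, pysam 0.24.0 and matplotlib 3.10.9.

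The members and lists were chosen with earlier results of these data known. The genes named were 12 fixed collagens and, in each comparison, the 5 members with the largest net loss and the 5 with the largest net gain of open loci. Members outside this rule, such as those with a promoter open in some lists, were chosen after their values were seen. For each result, 11 alternatives were tried: other windows, promoter handling, gene assignment, overlaps and score limits.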

Additional observations from a re-analysis of the deposited data

Results flagged for a closer look

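Col25a1 and Col27a1 moved in opposite directions with PD in the Hras lines. The net number of open loci of Col25a1 was −9 in Hras.E1A cells and 4 in Hras.Myc cells (open with PD minus open untreated). That of Col27a1, a fibrillar collagen of cartilage, was −3 in Hras.E1A cells and 3 in Hras.Myc cells. These 2 members were taken because their net change was at least 3 loci in each line and opposite in sign, a limit chosen after seeing the data. The difference between the lines was not tested, since each group had 1 list. Untreated Hras.E1A cells had 16 open Col25a1 loci and untreated Hras.Myc cells 6, so the lines differed before treatment.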

How the results depend on the processing

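No paired analysis was possible because each group was deposited as 1 pooled list, and for the same reason no replicate could be left out. Of 154 recomputed values of 14 results under 11 alternatives, 135 stayed within the counting interval or 1.5 times the count and 19 moved. These values are shares and counts without a sign, and 2 directions read from them turned with lists of equal size: the open collagen loci were 195 in Hdac7SA.Mef2d cells, against 248 in Hras.E1A and 225 in Hras.Myc cells, and PD opened more loci than it closed (113 and 96 in Hras.E1A, 124 and 82 in Hras.Myc cells). Of 122 further values by class, 10 moved. The loci opened with PD in Hras.E1A cells ranged over 9 to 34 fibrillar, 3 to 20 network and 18 to 59 other loci. Without the lowest-scoring 25% of each list, the share of collagen loci closed was 47.1% with PD and 24.8% with TSA in Hras.E1A cells, and 47.3% with PD and 23.9% with TSA in Hras.Myc cells. The share of Hras.E1A loci not open in Hdac7SA.Mef2d cells was then 35.0%, that of Hras.Myc loci 36.1%, and that of Hras.Myc loci not open in Hras.E1A cells 13.7%. With lists of equal size, 113 loci opened with PD in Hras.E1A cells, TSA closed 25.0% in Hras.E1A and 23.6% in Hras.Myc cells, and the last 3 shares were 56.9%, 61.3% and 24.9%. Without promoters PD closed 43.4% in Hras.E1A and 44.4% in Hras.Myc cells, and 63.0% of Hdac7SA.Mef2d loci were not open in Hras.Myc cells. With loci whose nearest start was a collagen, PD opened 31 loci in Hras.E1A cells and TSA opened 39 in Hras.Myc cells, and with the gene body alone TSA opened 24 in Hras.E1A cells. The causes were not tested. The closed share of the network class with PD was above that of the fibrillar class in 9 of 10 alternatives in Hras.E1A cells (33.3% against 33.9% with lists of equal size) and in 10 of 10 in Hras.Myc cells. Leaving out Col4a1 and Col4a2 was added after seeing the data. Unknown depth limits every count.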
